A study of Mus musculus with 3 samples.

Results

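Bipolar cells carry visual signals from photoreceptors to the inner retina, and 4 genes that mark them were followed here in neural retina of Rp1 knockout mice: Trpm1, Pcp2, Car8 and Prkca. They were taken as every probe set to which the array annotation gives exactly 1 gene symbol, that symbol being 1 of the 4. This gave 5 probe sets out of 12422 that are not controls, and 4 genes out of 8251 with a probe set of their own. Pcp2 had 2 probe sets and each of the other genes had 1.

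The series holds 3 one-colour Affymetrix arrays in 1 group. All mice were homozygous Rp1 knockouts (Rp1-/-) of mixed 129/SvEv and C57BL/6 background, aged 21 days after birth, and all retinas were taken between 1 and 2 pm. Each array measured total RNA of 1 pool of neural retinas from 3 to 4 mice, so differences between animals within a pool are not seen. No wild-type or other reference group was analysed here, nothing was tested between conditions, and the knockout rests on the labels, because no probe set carried the symbol Rp1. The 3 pools are called replicates 1, 2 and 3, numbers that only name them.

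ON bipolar cells read photoreceptor glutamate through the metabotropic receptor mGluR6, which is coupled to the G protein Go. In the dark, glutamate keeps this cascade active and the cation channel TRPM1 closed. Light lowers glutamate, RGS proteins bound to the G protein beta subunit Gnb5 switch Go off, and TRPM1 opens and depolarises the cell. Protein kinase C alpha, the product of Prkca, is a standard marker of rod bipolar cells. PCP2 is a small Go-binding protein with a GoLoco motif that is found in ON bipolar cells and in cerebellar Purkinje cells. CAR8 is a carbonic anhydrase relative without enzyme activity that is best known as a partner of the inositol trisphosphate receptor in Purkinje cells.

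Signals are intensities on a common linear scale with arbitrary units, and a signal counted as above background when it exceeded the 95th percentile of 19 probe sets on the same array that target bacterial or yeast RNA. Replicate 1 had the highest value in 2 measures taken over the whole array. Its background limit was 160.3, against 80.7 in replicate 2 and 107.1 in replicate 3. Its median log2 signal over all probe sets was 8.21, against 7.76 and 7.96 in replicates 2 and 3. The ranges of the bipolar genes and the counts that rest on replicate 1 are therefore given without it as well. Markers of other retinal cells were measured for rods (4 genes), cones (3), horizontal cells (3), Müller glia (3) and ganglion cells (3). Every one was above background on all 3 arrays, against 60.7% of all genes.

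Of the 5 bipolar probe sets, 4 were above background on all 3 arrays and 1, that of Prkca, was below it in replicate 1. Among all probe sets 54.4% were above background on all arrays. Signals of different probe sets are not set against each other, since probe sets respond differently. The spread between pools divided the 4 genes. Trpm1 and the brighter Pcp2 probe set varied little, the dimmer Pcp2 probe set varied nearly 2-fold, and Car8 and Prkca were far lower in replicate 1 than in the other pools. Of the 5, 2 had a range of at least 2-fold (1 on the log2 scale), against 47.7% of the probe sets above background on at least 1 array, too few to set the bipolar probe sets apart from the array. With arrays scaled to a common median it was 3 of 5 against 52.2%, and after quantile normalization 3 of 5 against 46.8%. Without replicate 1 such a range was found for 0 of the 5 and for 15.6% of such probe sets.

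**Figure D1:**
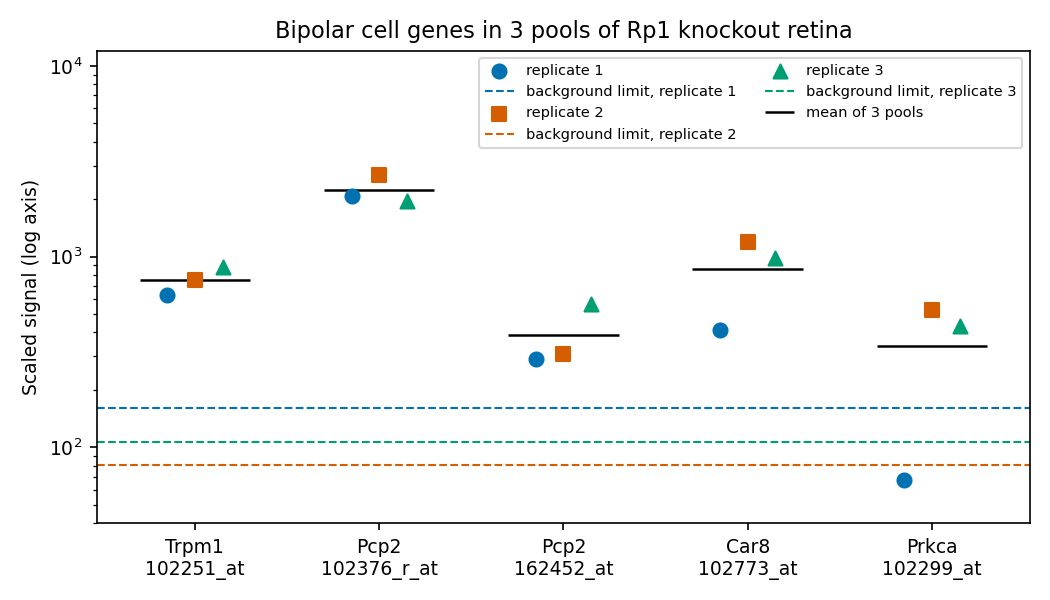
Scaled signal of each bipolar probe set (log axis, arbitrary units) in the 3 pools of Rp1 knockout retina. Points are single arrays, black bars the mean of 3 pools and dashed lines the background limit of each array. The only point under its own limit is Prkca in replicate 1, at 67.6.

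Trpm1, the channel at the end of the mGluR6 cascade, was read by probe set 102251_at and had signals of 632, 752 and 878 in replicates 1, 2 and 3, with a mean of 754 ± 123 (SD, n = 3). The pools were close to each other, with a highest signal 1.39 times the lowest and a log2 range of 0.47. Of 3861 probe sets whose mean signal lay within 2-fold of that of Trpm1 (above background on at least 1 array), 28.7% had a smaller range, and their median range was 0.69. Without replicate 1 the range of Trpm1 was 0.22. Signals stood 3.94, 9.32 and 8.20 times above the background limit of replicates 1, 2 and 3, so this transcript was measured well in every pool. In bulk tissue, fewer cells of a type and less RNA per cell cannot be told apart, for Trpm1 or any other gene.

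Trpm1 was first known as melastatin, a gene of pigment cells, and melanocytes as well as ON bipolar cells transcribe it. The mouse gene has 2 start sites in the RefSeq table used (build GRCm38.p6). Both 300-base windows, from 250 bases before to 50 after the start, are shown because the pigment genes Dct and Pmel differed strongly between these pools. Capitals mark 3 motifs searched on both strands: TAATCC (reverse complement GGATTA), the core bound by the retinal factors CRX and OTX2, and CATGTG (reverse complement CACATG) and CACGTG, E-box forms bound by the pigment cell factor MITF. No matches overlapped each other.
Trpm1 upstream start, chr7:64153585-64153884, plus strand: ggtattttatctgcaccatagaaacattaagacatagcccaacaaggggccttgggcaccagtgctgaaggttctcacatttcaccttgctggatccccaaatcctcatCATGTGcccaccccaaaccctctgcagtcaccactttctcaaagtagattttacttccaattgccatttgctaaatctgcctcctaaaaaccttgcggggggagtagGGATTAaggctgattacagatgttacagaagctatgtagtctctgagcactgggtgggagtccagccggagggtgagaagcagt
Trpm1 downstream start, chr7:64185209-64185508, plus strand: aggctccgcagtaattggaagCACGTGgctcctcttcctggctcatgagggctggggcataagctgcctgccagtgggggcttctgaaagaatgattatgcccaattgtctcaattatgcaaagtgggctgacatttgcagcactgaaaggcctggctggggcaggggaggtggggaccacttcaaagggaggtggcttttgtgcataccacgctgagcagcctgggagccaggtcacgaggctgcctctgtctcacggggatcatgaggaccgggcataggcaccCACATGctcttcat
The upstream window held TAATCC on the minus strand, its match beginning at position -34 from the start site, and CATGTG at position -141. The downstream window held CACGTG at position -229 and CATGTG on the minus strand at position 37, and no TAATCC. Of all 32851 promoter windows of this length in the table, 7.06% held TAATCC, 14.2% held CATGTG and 7.15% held CACGTG. A match describes letters only, and the array does not tell from which start a transcript came.

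The pigment cell genes Dct and Pmel differed far more between pools than Trpm1 did. Dct, an enzyme of melanin synthesis, had signals of 765, 5724 and 3742 in replicates 1, 2 and 3. Pmel, which builds the melanosome matrix, had 454, 4105 and 2610. Both were lowest in replicate 1, and replicate 2 was 7.49-fold and 9.04-fold above it, while for Trpm1 replicate 2 was higher than replicate 1 by 0.25 on the log2 scale. Trpm1 was also lowest in replicate 1, but highest in replicate 3, where Dct and Pmel were intermediate. Without replicate 1 the contrast was smaller: replicate 2 had 1.53 and 1.57 times the signal of replicate 3 for Dct and Pmel, and 0.86 times for Trpm1. Of 9 pigment cell markers listed, 6 had a probe set of their own. Above background on all arrays were 3 of these (Dct, Pmel and Ttr), against 60.7% of all genes, the others being below it in replicate 1. Ttr had 609, 891 and 533, a log2 range of 0.74, and was lowest in replicate 3. The ranges of Tyrp1, Rdh5 and Tyr, which use signals below background, were 4.50, 3.37 and 1.07. The summed signal of the 6 was 2031, 12917 and 8368 in replicates 1, 2 and 3. The part of pigment cell RNA in the Trpm1 signal was not tested.

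**Figure D2:**
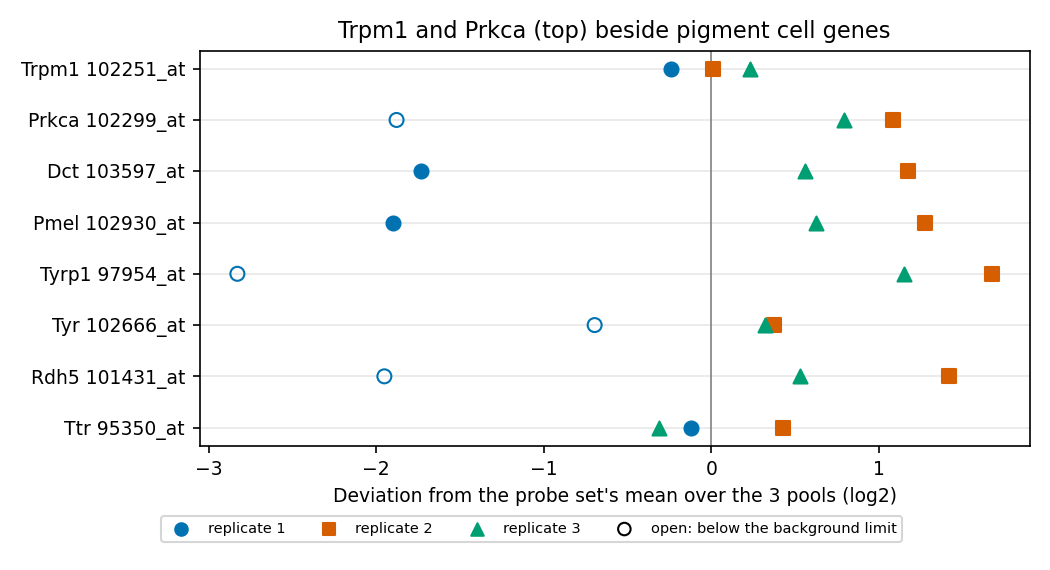
Deviation of each pool from the probe set's own mean over the 3 pools (log2 scale), for Trpm1 and Prkca and for 6 pigment cell genes. Open points lie below the background limit of their array. Replicate 1 is far to the left for Prkca, Dct, Pmel, Tyrp1 and Rdh5, and close to the other pools for Trpm1 and Ttr.

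Pcp2 was read by 2 probe sets that gave different pictures. The brighter one, 102376_r_at, had signals of 2067, 2692 and 1958 in replicates 1, 2 and 3 (mean 2239 ± 396, SD, n = 3). The dimmer one, 162452_at, had 289, 307 and 567 (mean 388 ± 156, SD, n = 3). The brighter probe set was highest in replicate 2 with the other pools nearly level, whereas the dimmer one was highest in replicate 3 with replicates 1 and 2 nearly level. Its suffix marks the brighter probe set as one for which some of the manufacturer's probe selection rules were dropped.

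With each probe set taken relative to its own mean, the difference of the brighter minus the dimmer was 0.25, 0.55 and -0.80 on the log2 scale in replicates 1, 2 and 3. These differences sum to 0 because of the centring, so they show unequal patterns and do not single out a pool. Disagreement of this size was common on these arrays. Among 1041 pairs of probe sets of 1 gene that were above background on all arrays (794 genes), the largest gap in any pool had a median of 0.57, and 31.3% of pairs had a gap at least as large as the 0.80 of Pcp2. The direction of a difference between pools for Pcp2 therefore depends on the probe set. Without replicate 2 the range of the brighter probe set was 0.078, against 0.46 with all pools, and without replicate 3 that of the dimmer one was 0.086, against 0.97.

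**Figure D3:**
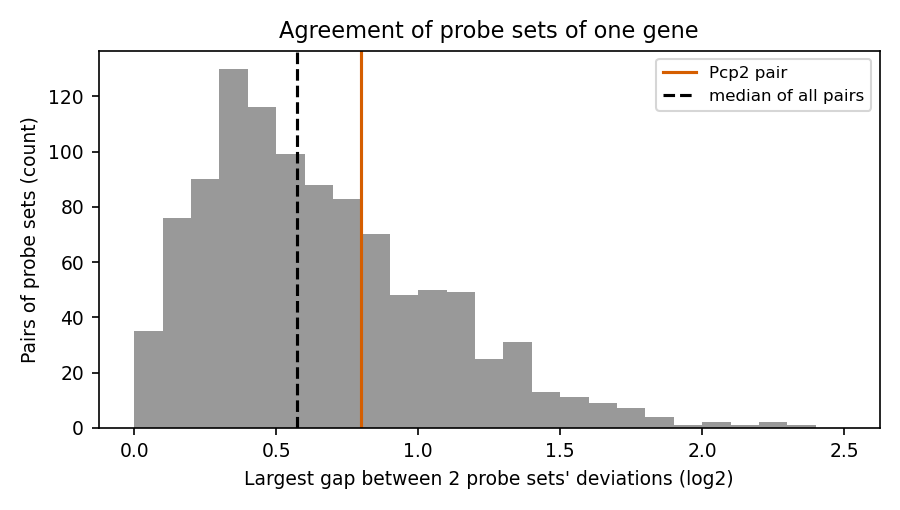
Distribution of the largest gap between the log2 deviations of 2 probe sets of the same gene, over 1041 pairs above background on all 3 arrays (bars are counts of pairs). The Pcp2 pair, at 0.80, lies to the right of the median of 0.57 and inside the bulk of the distribution.

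Car8, read by probe set 102773_at, had signals of 414, 1198 and 977 in replicates 1, 2 and 3, with a mean of 863 ± 405 (SD, n = 3). Replicate 1 was well below the other pools, and replicates 2 and 3 were within 1.23-fold of each other. The log2 range of 1.53 was larger than that of 90.3% of the 3569 probe sets with a mean signal within 2-fold of it. Within its own array, Car8 stood at the 59.1st percentile of all probe sets in replicate 1 and at the 87.1st and 83.9th in replicates 2 and 3, a comparison that needs no scaling between arrays. Without replicate 1 its range was 0.29.

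Prkca, read by probe set 102299_at, had signals of 67.6, 526 and 431 in replicates 1, 2 and 3. The signal of replicate 1 was below the limit of 160.3 there, so only a lower bound of the difference can be given. Replicate 2 was at least 3.28-fold and replicate 3 at least 2.69-fold higher than replicate 1. Prkca was thus clearly seen in the other pools, at 6.53 and 4.02 times the limits of replicates 2 and 3, and not above background in replicate 1. Its place within the array was the 19.4th percentile in replicate 1 and the 71.0th and 64.1st in replicates 2 and 3. Of the 4564 probe sets within 2-fold of its mean signal, 94.7% had a smaller range than its 2.96 on the log2 scale, a range that uses the signal below background. Without replicate 1 the range was 0.29, so replicates 2 and 3 were as close to each other for Prkca as for Car8.

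Prkca is also expressed by some amacrine cells. All 6 listed amacrine markers had a probe set of their own and 5 were above background on all arrays. The summed signal of the 6 was 13844, 17359 and 14497 in replicates 1, 2 and 3, so it was lowest in replicate 1 by far less than Prkca. The single genes did not share this order. Among the 5 above background, 2 were lowest in replicate 1, against 36.0% of all genes above background. Another 2 were highest in replicate 1, as were 2134 of all 5006 genes above background. The median deviation of the 5 in replicate 1 was 0.08 on the log2 scale. Slc6a9, the glycine transporter of glycinergic amacrine cells, had 1613, 2757 and 2965, and Gad1, which makes GABA, had 5445, 5053 and 4039. The part of amacrine cells in the Prkca result was not tested.

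Among probe sets above background on all arrays, those with the pattern closest to Prkca were of the pigment genes Pmel and Dct, as described further on. The Prkca start site window is therefore shown beside those of Trpm1. It holds none of the 3 motifs, and its GC content of 75.3% compares with a median of 52.7% over all windows.
Prkca, chr11:108343839-108344138, minus strand: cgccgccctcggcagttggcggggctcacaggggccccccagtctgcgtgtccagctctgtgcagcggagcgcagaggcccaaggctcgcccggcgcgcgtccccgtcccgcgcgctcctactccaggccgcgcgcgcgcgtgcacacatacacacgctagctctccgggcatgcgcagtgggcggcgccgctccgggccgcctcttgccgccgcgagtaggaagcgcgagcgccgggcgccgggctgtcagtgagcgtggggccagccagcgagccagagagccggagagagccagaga
Of the 4 genes, 3 had an entry in the RefSeq promoter table, Trpm1, Pcp2 and Prkca. Of the 4 windows of Pcp2, 1 held CATGTG, at position -91, and the others held none of the motifs.

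Of the 5 bipolar probe sets, 4 had their lowest signal in replicate 1, against 36.3% of the probe sets above background on at least 1 array. The exception was the brighter Pcp2 probe set, lowest in replicate 3. The lowest pool depended on scaling for that probe set alone: with arrays scaled to a common median all 5 were lowest in replicate 1, against 50.3% of probe sets, and after quantile normalization 4 were, against 41.8%. Of the probe sets with a mean within 2-fold, 36.4% for Trpm1, 38.0% for Car8 and 30.6% for Prkca were lowest in replicate 1. For the brighter and dimmer Pcp2 probe sets that share was 54.6% and 31.0%, so it was not the same at every signal level.

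The genes of the mGluR6 cascade belong to the same ON bipolar cells. Of 11 listed genes, 5 had a probe set of their own and all 5 exceeded background on every array, as did 60.7% of all genes. The receptor gene Grm6 was not analysed here. Gnb3, the beta subunit that partners Go in ON bipolar cells and is also used by cones, had signals of 2830, 6074 and 4503 in replicates 1, 2 and 3. Rgs11, which speeds the shutoff of Go, had 722, 1507 and 1390. Rgs7, which acts in the same step, had 426, 958 and 603. All 3 were lowest in replicate 1 and highest in replicate 2, the order also seen for Car8 and Prkca.

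The other cascade genes were flatter. Gnao1, the alpha subunit of Go and widely used by neurons, had 5235, 6142 and 6427 at its plain and brightest probe set, a log2 range of 0.30. A further probe set was as flat, at 724, 573 and 735, and differed from it by at most 0.29 in log2 deviation. Others did not follow it, with 1 at 707, 297 and 158 and 1 at 205, 337 and 462, and 1 was below background on all arrays. Gnb5, which stabilises RGS7 and RGS11, had 2894, 2865 and 1737 and was lowest in replicate 3.

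Taking 1 probe set per gene, 4 of the 5 cascade genes were lowest in replicate 1, against 36.0% of all genes above background. That share was higher among bright probe sets, at 54.6% for those within 2-fold of the brighter Pcp2 probe set's mean of 2239. Gnao1, Gnb3 and Gnb5 were brighter still, with means of 5935, 4469 and 2498, so 36.0% may be too low a comparison for them. On the log2 scale the median deviation of the 5 genes from their own means was -0.56, 0.39 and 0.08 in replicates 1, 2 and 3. Over all genes above background it was 0.04, -0.005 and -0.03. A log2 range of 1 or more was found for 3 of the 5, against 28.3% of all genes above background. Without replicate 1 it was found for 0 of the 5, whose ranges were then 0.065 to 0.72, and for 5.66% of the genes above background in replicates 2 and 3. After quantile normalization 3 of the 5 were lowest in replicate 1, with Gnao1 then highest there, against 39.8% of all genes. With arrays scaled to a common median it was 4 of 5 against 54.1%. Cone markers were low in replicate 1 too, with a median deviation of -0.49 in replicate 1 and a summed signal of 5499, 10099 and 7325 in replicates 1, 2 and 3 over 3 genes. Lens markers (4 genes) had summed signals of 65953, 116292 and 86338, with 3 lowest in replicate 1. Blood markers (3 genes) had 5378, 31607 and 8013. All 4 lens genes and 2 of the 3 blood genes were above background on every array, against 60.7% of all genes. Gnb3 is shared with cones, and the part of cones, lens or blood in these results was not tested.

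**Figure D4:**
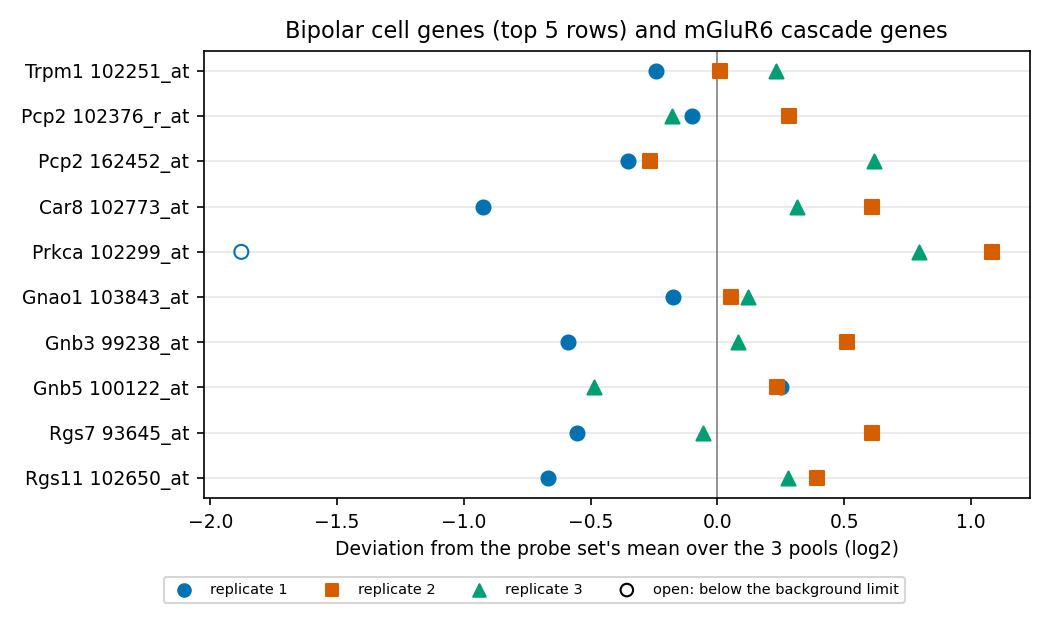
Deviation of each pool from the probe set's own mean over the 3 pools (log2 scale), for the 5 bipolar probe sets and for 1 probe set of each of 5 mGluR6 cascade genes. Replicate 1 is the leftmost point for 8 of the 10 probe sets, the others being the brighter Pcp2 probe set and Gnb5, and its open point for Prkca is below background.

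Transcription factors and receptors of bipolar cells showed other orders of the pools. Of 12 listed transcription factors 3 had a probe set of their own. Background was exceeded on all arrays by 2 of them, against 60.7% of all genes. Isl1, a homeobox factor of ON bipolar cells that amacrine and ganglion cells also use, had 661, 759 and 517 in replicates 1, 2 and 3, and the homeobox gene Sebox had 459, 432 and 374. Both were lowest in replicate 3. Nfia gave opposite orders at its 2 probe sets, with 39.6, 129 and 124 at one and 368, 28.3 and 41.8 at the other. Both orders use signals below background, namely the 39.6, the 28.3 and the 41.8.

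Of 14 further bipolar genes 5 had a probe set. Each of the 5 exceeded background in every pool, as 60.7% of all genes did. The subunits of the GABA-C receptor on bipolar terminals, Gabrr1 and Gabrr2, had 795, 920 and 765 and 892, 671 and 563 in replicates 1, 2 and 3. Grik1, a kainate receptor subunit of OFF bipolar cells, had 277, 136 and 119, and the glycine receptor gene Glra1 had 984, 339 and 467. Kcnma1, the BK potassium channel gene, had 2206, 1882 and 2698. None of these 5 was lowest in replicate 1, against 36.0% of all genes above background. Grik1, Gabrr2 and Glra1 were highest in replicate 1, as were 2134 of all 5006 genes above background. With arrays scaled to a common median, however, Gabrr1 and Kcnma1 became lowest in replicate 1, and after quantile normalization Gabrr1 did. Over the 3 lists together, 12 of 13 measured genes exceeded background in every pool, while 60.7% of all genes did so. Of the 12, 4 were lowest in replicate 1 (33.3%, against 36.0% of all genes above background). The median log2 range of the 12 was 0.70, against 0.69 over all genes. With a common median 6 of the 12 were lowest in replicate 1, against 54.1% of all genes, and after quantile normalization 4 were, against 39.8%. The low replicate 1 of Car8, Prkca, Gnb3, Rgs7 and Rgs11 was therefore not shared by all measured bipolar genes.

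Genes with the pattern most like each bipolar gene were found by the Euclidean distance between log2 deviations over the 3 pools, among 6092 to 6094 probe sets above background on all arrays. With only 3 pools, many probe sets can be alike by this measure. Closest to Trpm1 were Exosc5 and Agfg1 at distances of 0.007 and 0.019, and 96 probe sets lay within 0.1. Closest to the brighter Pcp2 probe set were Rcn1 and Cfl2 at 0.015 and 0.017, with 121 within 0.1. Closest to Car8 were Rraga and Gab1 at 0.027 and 0.031, with 11 within 0.1. Prkca had 0 within 0.1, and its closest genes were the pigment genes Pmel and Dct, at 0.26 and 0.29. Prkca itself was below background in replicate 1 and so lay outside the probe sets compared. Genes that also fell below background there, such as Tyrp1 and Rdh5, could not be found. The count for Prkca is therefore not comparable with those of the other genes.

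The likeness of Prkca to Pmel and Dct rests on replicate 1, where Prkca was below background. Without replicate 1, Pmel and Dct ranked 3134th and 2872nd. With all values below 160.3 set to that level on every array, an alternative added with the data in view, they ranked 1533rd and 886th. After quantile normalization the closest genes were Ptgds and Pmel, with Dct ranked 3rd. Among the bipolar genes themselves, Car8 was at 1.17 from Prkca, with 93 probe sets closer or as close, while Trpm1 was at 2.04 and the brighter Pcp2 probe set at 2.18. Trpm1 and the brighter Pcp2 probe set were 0.51 apart. The part of pigment cell RNA in the Prkca signal was not tested.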

How the data were processed

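Total RNA of neural retina was measured on 3 arrays, whose titles carry the name U74Av2. The deposited table gives the linear intensity of 12488 probe sets on each array; the software, background correction and scaling behind it are not given in the sources used here. The deposited intensities had a 2% trimmed mean of 500.2, 500.3 and 500.2. Each array was multiplied by a factor (0.998, 1.00 and 1.00) that equalised this mean over all 12422 non-control probe sets. For log2 values only, signals under an array's 5th percentile were raised to it. Precision is limited by the number of arrays.

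Symbols came from the platform annotation, in which 10833 probe sets carried 1 symbol, 396 several and 1193 none. All 4 member symbols were in the mouse gene table of GRCm38.p6. Outside the members, a plain suffix and then the highest mean chose the probe set of a gene. The named genes were every member probe set, any listed gene with a probe set of its own, and the 2 genes with the pattern nearest each member. The members and lists were chosen with earlier results of these data known. Each replicate is a pool of neural retinas per the labels, which do not state whether the pools came from different mice. No test between groups was possible. Alternatives were the background limit, scaling, floor, pseudocount (16), range threshold, probe set choice and leaving out each replicate. The computations were tested on simulated data. Python 3.11.15, numpy 2.4.6 and pandas 2.3.3 were used.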

Additional observations from a re-analysis of the deposited data

How the results depend on the processing

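The count of bipolar probe sets above background on all arrays (4 of 5) was between 4 and 5 under every alternative, with 5 at the median control as limit (80.4% of all probe sets) and without replicate 1 (63.3%). The count with a 2-fold range (2 of 5) was 3 with a common median, with quantile normalization and at a 1.5-fold threshold (52.2%, 46.8% and 72.9% of probe sets above background on at least 1 array), and 0 to 2 with 1 replicate left out, the 0 being without replicate 1. With a common median the log2 range was 0.72 for Trpm1 and 0.83 for the brighter Pcp2 probe set. With 1 replicate left out, ranges were 0.22 to 0.47 for Trpm1, 0.078 to 0.46 and 0.086 to 0.97 for the brighter and dimmer Pcp2 probe sets, 0.29 to 1.53 for Car8 and 0.29 to 2.96 for Prkca. With values below the highest background limit set to it, an alternative added with the data in view, the range of Prkca was 1.72. Of the 8 genes named for the nearest patterns, 8 were again named with a common median, 6 with that floor, 1 after quantile normalization and 0 without replicate 1; the cause was not tested. The gap between the Pcp2 probe sets lay between 0.77 and 0.87. No paired analysis was possible because there is 1 group.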

Other observations

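Relatives of the bipolar genes were measured on the same arrays. Of 8 listed protein kinase C isoforms other than Prkca, 7 had a probe set of their own. Background was exceeded on all arrays by 6 of them, against 60.7% of all genes. Prkcb, another classical isoform, had 1903, 2664 and 2422 in replicates 1, 2 and 3 at its preferred probe set and 715, 315 and 335 at the other, which was highest in replicate 1. Prkci, an atypical isoform, was highest in replicate 1 too, at 620, against 216 and 245 in replicates 2 and 3. Of the 6 isoforms above background, 2 were lowest in replicate 1, near the 36.0% of all genes above background. Prkch was below background on every array.

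Of 14 listed carbonic anhydrases other than Car8, 8 had a probe set. Background was exceeded on all arrays by 4 of them, against 60.7% of all genes. Car2 had 6957, 10302 and 7745 in replicates 1, 2 and 3. Car14, which Müller glia express, had 1158, 2196 and 2702, and like Car8 was lowest in replicate 1, while Car12 (380, 198 and 172) and Car5a (518, 129 and 122) were highest there. Of 5 GoLoco genes other than Pcp2, 4 had a probe set and 3 were above background on all arrays, against the same 60.7%. None of these 3 was lowest in replicate 1, against 36.0% of all genes above background. Of 7 other TRPM channels only Trpm7 had a probe set of its own, with 103, 103 and 315, below the limit in replicate 1.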
